A study of Gallus gallus with 4 samples.

Results

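TNRC6B, NFAT5 and SCUBE1 are 3 genes, of 13081 in the deposited count table, that had several-fold more reads in whole chick (Gallus gallus) embryos given thalidomide than in embryos not given it. They were selected on their read counts in 4 RNA sequencing libraries, for the difference between both libraries with thalidomide and both without, so their thalidomide values are given below as a description, with no test. The libraries are combination (thalidomide at 40 µg/ml and spermine NONOate at 10 µM), thalidomide alone (40 µg/ml), spermine NONOate alone (10 µM) and control, which received DMSO. All embryos were treated at Hamburger-Hamilton stage 8 (HH8) and collected whole on day 6. There is 1 library for each condition. The sources used here do not say how many embryos a library holds, nor their sex or strain.

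Thalidomide causes limb and organ malformations and acts through cereblon, a protein that selects substrates for a ubiquitin ligase. Spermine NONOate is a nitric oxide donor, and the question of the series is what nitric oxide does to gene expression in embryos exposed to thalidomide. TNRC6B is a GW182 family protein. In animal cells these proteins bind Argonaute, which carries the microRNA, and recruit the deadenylases that shorten the poly(A) tail of a targeted mRNA. NFAT5, also called TonEBP, is a Rel family transcription factor that in mammalian cells switches on osmolyte transporter genes under hypertonic stress. SCUBE1 is a secreted and cell surface glycoprotein with EGF-like repeats and a CUB domain, described in human endothelium and platelets. Its relative SCUBE2 helps release lipid-modified Sonic hedgehog from producing cells in zebrafish and mouse.

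The 4 libraries held 62576258 to 79359076 reads in genes, and 12859 to 12934 genes had a read. Values are normalised read counts (CPM, counts per 1000000 reads after TMM scaling), with 95% intervals. The intervals cover counting error only. PCR copies were not marked with molecular identifiers, so copied reads cannot be told from separate ones. No difference between 2 libraries has a replicate check. Composition differed between the libraries. Summed over 7 erythroid genes, the level was 8574 CPM in the combination library and 5170 CPM in the thalidomide library, against 24174 CPM in the spermine NONOate library and 25924 CPM in the control library. Summed over 8 hepatocyte genes, the level was 595 CPM in the combination library and 114 CPM in the thalidomide library. It was 1454 CPM in the spermine NONOate library and 271 CPM in the control library. The hepatocyte sum was thus higher with the donor both with and without thalidomide. In a whole embryo, fewer cells of a type and less RNA per cell cannot be told apart.

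TNRC6B (ENSGALG00000012050, chromosome 1, minus strand) had 7779 reads in the combination library and 6496 in the thalidomide library, against 1083 in the spermine NONOate library and 1850 in the control library. On the CPM scale these were levels of 100.2 (98.0 to 102.5) and 92.1 (89.8 to 94.3) with thalidomide, against 18.0 (16.9 to 19.1) and 25.4 (24.2 to 26.6) without. The thalidomide libraries did not overlap the others, which follows from how the gene was chosen. The lowest of the thalidomide libraries lay 3.63-fold above the highest of the others. Both thalidomide libraries lay above both without in 33.6% of all genes tested, and below in 33.2%.

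NFAT5 (ENSGALG00000000671, chromosome 11, plus strand) had the most reads of the 3, with 14594 in the combination library and 13325 in the thalidomide library, against 2399 in the spermine NONOate library and 4134 in the control library. Its levels were 188 CPM (185 to 191) and 189 CPM (186 to 192) with thalidomide, against 39.9 CPM (38.3 to 41.5) and 56.7 CPM (55.0 to 58.5) without. The pair of thalidomide libraries was equal within counting error, and the lower of them lay 3.32-fold above the control library.

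SCUBE1 (ENSGALG00000014178, chromosome 1, minus strand) had 3669 reads in the combination library and 4307 in the thalidomide library, against 602 in the spermine NONOate library and 629 in the control library. Its levels were 47.3 CPM (45.8 to 48.8) and 61.0 CPM (59.2 to 62.9) with thalidomide, against 10.0 CPM (9.22 to 10.8) and 8.63 CPM (7.97 to 9.33) without. Here the library with thalidomide alone was the highest, whereas for TNRC6B the combination library was.

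**Figure D1:**
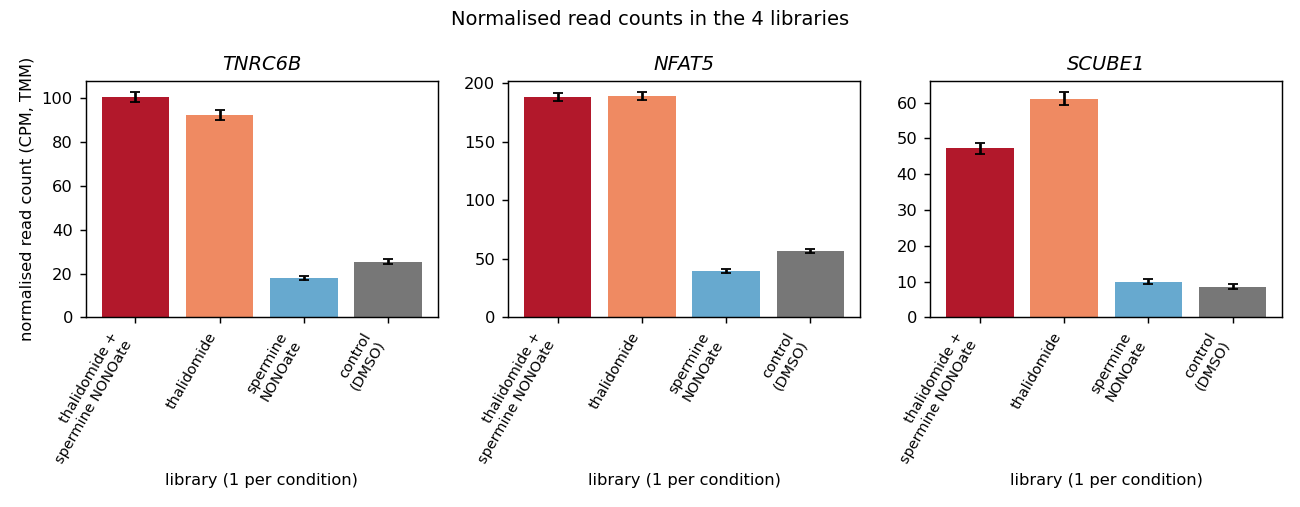
Normalised read counts (CPM, vertical axis from 0) of TNRC6B, NFAT5 and SCUBE1 in the combination, thalidomide, spermine NONOate and control libraries, 1 bar a library, with 95% counting intervals. In each panel the 2 thalidomide libraries stand well above the 2 without, for NFAT5 at 188 and 189 CPM against 39.9 and 56.7 CPM.

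Averaged on the log2 scale over the libraries of each kind, the level with thalidomide was 4.49-fold that without for TNRC6B (log2 2.17), 3.96-fold for NFAT5 (log2 1.99) and 5.78-fold for SCUBE1 (log2 2.53). Of 12090 genes tested, 89 (0.736%) had a difference at least as high as that of TNRC6B, 129 (1.07%) as that of NFAT5 and 53 (0.438%) as that of SCUBE1. These values chose the genes and support nothing further. In 33.6% of the genes tested both thalidomide libraries lay above both without, and in 33.2% both lay below.

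The layout holds 2 pairs of libraries that differ by thalidomide and share no library. TNRC6B was 3.63-fold higher with thalidomide than in control (log2 1.86, 1.78 to 1.93) and 5.57-fold higher in the combination than with spermine NONOate (log2 2.48, 2.39 to 2.57). For NFAT5 the same ratios were 3.33-fold (log2 1.74, 1.69 to 1.79) and 4.72-fold (log2 2.24, 2.18 to 2.30). For TNRC6B and NFAT5, then, the ratio was larger where the nitric oxide donor was present in both libraries. SCUBE1 went the other way, with 7.07-fold (log2 2.82, 2.70 to 2.95) in the absence of the donor and 4.72-fold (log2 2.24, 2.12 to 2.37) in its presence. By a rule of size, a ratio of at least 2-fold whose interval excludes no change with at least 20 reads in the higher library, 9.22% of 12138 genes were higher and 7.23% lower in the first pair, and 9.84% of 12161 were higher and 6.03% lower in the second. All 3 genes passed in each pair, which follows from how they were chosen. At 4-fold, TNRC6B and NFAT5 no longer passed against control. In the authors' deposited table the log2 folds for thalidomide over control were 1.86 for TNRC6B, 1.74 for NFAT5 and 2.82 for SCUBE1.

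The gaps between the 2 log2 ratios, second minus first, were 0.62 for TNRC6B, 0.50 for NFAT5 and -0.58 for SCUBE1. Each exceeded counting error, since the intervals of the ratios do not overlap. Over all genes tested the median absolute gap was 0.34, and 76.2%, 67.6% and 73.9% of genes had a gap no larger than that of TNRC6B, NFAT5 and SCUBE1, in that order. With 1 library per condition these gaps cannot be told apart from differences between embryos.

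**Figure D2:**
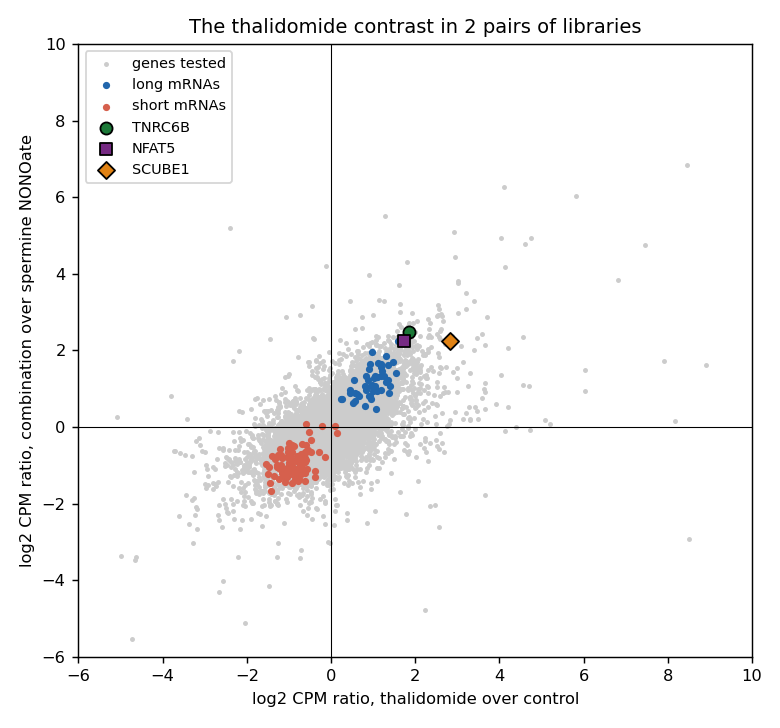
Log2 CPM ratios of all genes tested, thalidomide over control (horizontal axis) and combination over spermine NONOate (vertical axis), with a list of 49 long mRNAs in blue and 93 short mRNAs in red; 1 gene lies outside the axes. TNRC6B and NFAT5 lie close together at the upper right edge of the long mRNAs, and SCUBE1 lies further right, at 2.82 and 2.24.

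The pairs that differ by spermine NONOate were not the contrast on which the genes were chosen. None of the 3 passed the rule of size in them, where 4.33% of 12066 genes were higher and 1.33% lower with spermine NONOate than in control, and 3.74% of 12154 were higher and 1.26% lower in the combination than in the thalidomide library. TNRC6B and NFAT5 had less in the spermine NONOate library than in control, at 0.709-fold (log2 -0.50, -0.61 to -0.39) and 0.703-fold (log2 -0.51, -0.58 to -0.44). In the combination against thalidomide, TNRC6B was at 1.09-fold (log2 0.12, 0.08 to 0.17) and NFAT5 at 0.996-fold (log2 -0.006, -0.040 to 0.028). SCUBE1 stood at 1.16-fold with spermine NONOate against control (log2 0.21, 0.05 to 0.38) and at 0.775-fold in the combination against thalidomide (log2 -0.37, -0.43 to -0.30). These pairs share their libraries with the thalidomide pairs above. TNRC6B and NFAT5 had nearly the same ratio with spermine NONOate against control, and SCUBE1 had the opposite sign to TNRC6B in each of the donor pairs.

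**Figure D3:**
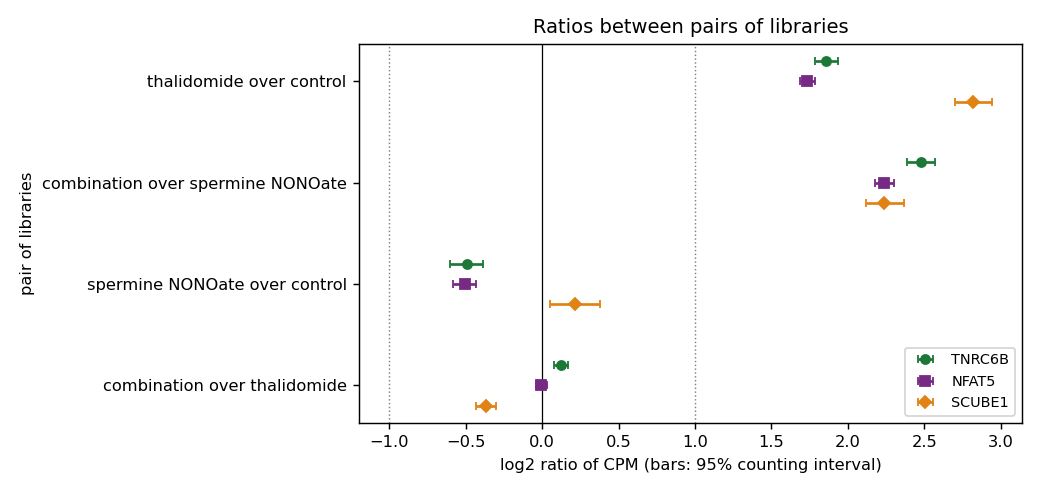
Log2 CPM ratios of the 3 genes (horizontal axis, bars are 95% counting intervals) for the 4 pairs of libraries, with dotted lines at 2-fold either way. Thalidomide pairs lie between 1.74 and 2.82, and spermine NONOate pairs between -0.51 and 0.21.

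Ratios of reads within a library do not depend on scaling. Per 100 reads of NFAT5 there were 53.3 reads of TNRC6B in the combination library and 48.8 in the thalidomide library, against 45.1 in the spermine NONOate library and 44.8 in the control library. The proportion of TNRC6B to NFAT5 was highest in the combination library and lowest in the control library, within a narrow range. Per 100 reads of NFAT5, SCUBE1 had 25.1 in the combination library and 32.3 in the thalidomide library, against 25.1 in the spermine NONOate library and 15.2 in the control library. SCUBE1 was least in proportion in the control library.

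The genes with the most similar pattern were found by the Euclidean distance between log2 CPM profiles over the 4 libraries, each centred on its own mean, among genes with at least 100 reads in every library. Nearest to TNRC6B were LRP6, a WNT co-receptor (distance 0.063), PLXNB1, a semaphorin receptor (0.080), INO80D, of the INO80 chromatin remodelling complex (0.143), EIF2C2, the older name of Argonaute 2 (0.150), and HMBOX1, a homeobox protein (0.154). LRP6 had 76.4 and 66.2 CPM in the combination and thalidomide libraries, against 13.5 and 18.96 CPM in the spermine NONOate and control libraries. Nearest to NFAT5 were LCOR, a nuclear receptor corepressor (0.055), EIF2C2 (0.060), INO80D (0.064), KIAA2018 (0.066) and PGAP1, which remodels GPI anchors (0.077). NFAT5 was 9th nearest to TNRC6B (0.203). Nearest to SCUBE1 were EML6, a microtubule-associated protein (0.090), GGA.38342 (0.324), POLQ, a DNA polymerase of end joining (0.348), PRTG, the protogenin gene (0.364), and DGKH, a diacylglycerol kinase (0.5003). EML6 had 18.0 and 23.2 CPM in the combination and thalidomide libraries, against 3.97 and 3.52 CPM in the spermine NONOate and control libraries. Relative to SCUBE1, TNRC6B was the 17th nearest gene (0.710) and NFAT5 the 30th (0.789). In the other direction SCUBE1 was the 101st nearest to TNRC6B and the 231st nearest to NFAT5, so its profile was far from both. These distances rest on 4 values a gene and describe these libraries.

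To set the 3 genes beside their pathways, other genes were tested for thalidomide in 1 fit over the 4 libraries, with spermine NONOate as an additive term (edgeR's quasi-likelihood test, Benjamini-Hochberg adjusted p under 0.05, 1 residual degree of freedom). In this fit an interaction of the treatments adds to a spread shared largely across genes, and the p-values do not rest on biological replicates. Of 12090 genes tested, 17.6% were higher with thalidomide and 14.9% lower, 2125 and 1805 genes. Total counts as the scaling moved the median gene up by 0.18 (log2), and 75.7% of the genes called were higher in place of 54.1%. With 1 library left out, and no donor term, the fit called 1530 genes without the combination library, 745 without the thalidomide library, 1063 without the spermine NONOate library and 1522 without the control library.

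Beside TNRC6B, the microRNA silencing list had 6 genes found of 12 listed. Over all genes tested 17.6% were higher with thalidomide and 14.9% lower. In the list 5 of the 6 were higher and none lower (median log2 1.03, against -0.01 over all genes tested). Argonaute 2, listed as EIF2C2, binds the microRNA and was the highest, with 28.7 and 27.8 CPM in the combination and thalidomide libraries, against 5.75 and 8.31 CPM in the spermine NONOate and control libraries. Its log2 difference was 2.03 ± 0.27 (SE, edgeR adjusted p = 6.82e-12). DICER1, which cuts precursor microRNAs, was higher by log2 1.57 ± 0.20 (SE, edgeR adjusted p = 1.85e-13). The paralogues of TNRC6B were higher too. TNRC6A had 339 and 337 CPM in the combination and thalidomide libraries, against 124 and 160 CPM in the spermine NONOate and control libraries (log2 1.26 ± 0.19 (SE), edgeR adjusted p = 1.38e-09). TNRC6C had a smaller difference, of log2 0.81 ± 0.19 (SE, edgeR adjusted p = 0.000226). XPO5, which exports precursor microRNAs from the nucleus, was higher by log2 0.56, and DROSHA, the nuclear microRNA processing enzyme, at log2 0.48, did not pass (edgeR adjusted p = 0.0528). Without the spermine NONOate library 3 of the 6 were called, and 4 without each of the other libraries in turn.

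The deadenylation and decapping list, the machinery that GW182 proteins recruit, had shares of calls near those of all genes. Of 20 genes tested 5 were higher and 2 lower (median log2 0.16), against 17.6% higher and 14.9% lower over all genes tested. XRN1, the exonuclease that degrades decapped mRNA, was higher by log2 1.12 (edgeR adjusted p = 4.51e-07), and the decapping cofactor DCP1A likewise by log2 1.12 (edgeR adjusted p = 4.53e-05). PAN3, a deadenylase subunit, rose by log2 0.78, CNOT6, a catalytic deadenylase, by 0.68, and CNOT1, the scaffold of the CCR4-NOT complex, by 0.63. BTG1, an antiproliferative partner of the CCR4-NOT deadenylase, was lower, at log2 -0.80 (edgeR adjusted p = 0.000103). The calls in this list depended on each library, with 4 without the combination library, 1 without thalidomide, 2 without spermine NONOate and 4 without control.

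Beside NFAT5, a list of osmotic response genes and NFAT relatives had 17 genes tested, of which 6 were higher and 3 lower (median log2 0.42, with 17.6% higher and 14.9% lower over all genes tested). SLC6A6, the taurine transporter, had 53.2 and 49.3 CPM in the combination and thalidomide libraries, against 21.1 and 26.1 CPM in the spermine NONOate and control libraries (log2 1.13 ± 0.23 (SE), edgeR adjusted p = 1.61e-05). Of the other osmotic response genes, SLC5A3 (log2 1.14) and SLC6A12 (1.08) were called higher at low levels. SLC6A12 had 0.99 CPM in the thalidomide library, below its 2.39 CPM in the spermine NONOate library. AKR1B1, at log2 -0.36, did not pass (edgeR adjusted p = 0.173). LRRC8A, a subunit of the volume-regulated anion channel, rose by log2 0.94 and WNK1, a kinase of cell volume control, by 0.82. The water channel gene AQP1 (log2 -0.84), the stress-induced kinase gene SGK1 (-0.76) and the aldo-keto reductase gene AKR1B10 (-0.69) were lower. The calcineurin-dependent relatives of NFAT5 differed among themselves. NFATC3 was higher by log2 0.65 ± 0.20 (SE, edgeR adjusted p = 0.00549), while NFATC2, at 0.81, and NFATC1, at 0.03, did not pass (edgeR adjusted p = 0.0912 and 0.934). Of this list 3 genes were called without the combination library, 4 without thalidomide, 3 without spermine NONOate and 4 without control.

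Beside SCUBE1, 12 genes of the SCUBE family and hedgehog signalling were tested, of which 5 were higher and none lower (median log2 0.52, with 17.6% higher and 14.9% lower over all genes tested). SCUBE2, its paralogue, had 12.1 and 9.01 CPM in the combination and thalidomide libraries, against 8.26 and 7.74 CPM in the spermine NONOate and control libraries, and did not pass (log2 0.39 ± 0.31 (SE), edgeR adjusted p = 0.354). LRP2, an endocytic receptor that also binds Sonic hedgehog, had 128 CPM in each of the combination and thalidomide libraries, against 56.7 and 22.5 CPM in the spermine NONOate and control libraries (log2 1.84 ± 0.21 (SE), edgeR adjusted p = 7.78e-16). LRP2 is also a kidney tubule marker and is counted in that list below too. GLI3, a transcription factor of the pathway that acts mainly as a repressor in the limb, was higher by log2 1.65 ± 0.22 (SE, edgeR adjusted p = 6.29e-12). SHH, the ligand, was higher by log2 1.13 ± 0.28 (SE, edgeR adjusted p = 0.000433), with unequal pairs. It had 18.9 and 24.2 CPM in the combination and thalidomide libraries, against 14.1 and 6.75 CPM in the spermine NONOate and control libraries. The hedgehog co-receptor BOC rose by log2 0.64 and the pathway inhibitor SUFU by 0.55. The hedgehog count was 2 without the donor term, 1 without the combination library, 1 without thalidomide, 3 without spermine NONOate and 3 without control.

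**Figure D4:**
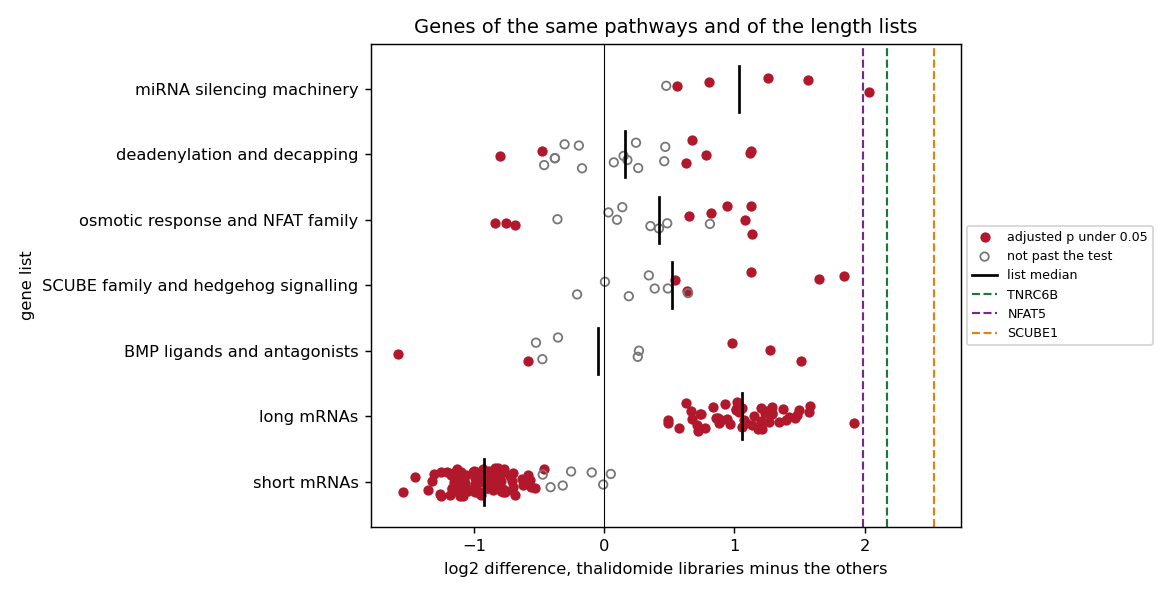
Log2 difference, thalidomide libraries minus the others (horizontal axis), for genes of 5 pathway lists and of the long and short mRNA lists, 1 point a gene, filled where the edgeR adjusted p was under 0.05, with the list medians as black bars and the 3 genes as dashed lines. All 49 long mRNAs lie above 0, and 92 of 93 short mRNAs below.

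A list of genes known for long mRNAs, such as giant ubiquitin ligases and chromatin regulators, moved with these genes. It held 60 genes, of which 49 were found. This list and the short list below were not planned, and both were chosen with earlier results of these data known. Their counts describe these libraries. Of 49 tested, 49 were higher with thalidomide (median log2 1.06, from 0.49 to 1.92), and the count was 33 to 44 with 1 library left out. Over all genes tested 17.6% were higher and 14.9% lower. The long list summed to 16161 CPM in the combination library and 16421 CPM in the thalidomide library, against 7577 and 8709 CPM in the spermine NONOate and control libraries. Of 93 genes with short mRNAs, of cytosolic ribosomal proteins and respiratory chain subunits, 86 were lower and none higher (median log2 -0.92), and with 1 library left out 55 to 70 were lower, the 55 being without the thalidomide library. The short list was chosen by gene symbol, so it also holds assembly factors, such as COX10 and COX15, that are not subunits. Its sums were 51972 and 55163 CPM in the combination and thalidomide libraries, against 104049 and 109017 CPM in the spermine NONOate and control libraries. TNRC6B and NFAT5 are themselves known in human for long mRNAs with long 3′ untranslated regions. The highest gene of the long list was at log2 1.92, and NFAT5, chosen for its difference, at log2 1.99. The lengths of chick mRNAs were not used here, and the part of mRNA length in the values of TNRC6B, NFAT5 and SCUBE1, and of the pathway genes above, was not tested.

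Endothelial markers, of a cell type that expresses SCUBE1 in human, are given without a comparison of size, because SCUBE1 was chosen for its difference. The 8 tested ran from log2 0.00 for TIE1 to 1.13 for FLT4 (median log2 0.43), and 2 of the 8 were called higher and none lower, against 17.6% higher and 14.9% lower over all genes tested. The count was 5 with total counts, and 1 without the combination, thalidomide or control library. The markers summed to 660 CPM in the combination library and 600.0 CPM in the thalidomide library, against 488 and 504 CPM in the spermine NONOate and control libraries. Thrombocyte markers had 0 of 4 genes called by edgeR, 0 at an unadjusted p under 0.05 and 0 by DESeq2 or limma, with log2 differences from -0.16 to 0.42. They summed to 8.13 and 7.002 CPM in the combination and thalidomide libraries, against 7.98 and 5.42 CPM in the spermine NONOate and control libraries. Erythroid genes had 1 of 7 higher and 6 lower, with 5 or 6 called when 1 library was left out. Lens genes had 7 of 7 lower, but 0 were called without the thalidomide library and 0 without the control library. Skeletal muscle genes had 5 of 5 lower, with 1 called without the thalidomide library and 2 without the control library. Hepatocyte genes had 4 of 8 lower and none higher, with 1 called without the combination library and 0 without each of the other libraries or without the donor term. Neuronal genes had 1 of 6 higher and 2 lower, with 1 called without the combination, thalidomide or spermine NONOate library or the donor term, and neither lower call held with total counts. Kidney tubule genes had 4 of 5 higher and 1 lower, with 0 called without the combination library, 0 without the thalidomide library, and 2 without the control library or the donor term. UMOD, a marker of the kidney tubule matched through the synonym ZPD, was too low to test. It had no read in the thalidomide library and at most 0.15 CPM in any library. SLC13A1 had no read in the control library. The part of these shifts in the values of the 3 genes was not tested.

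The chromosomal neighbours of TNRC6B, NFAT5 and SCUBE1 were tested in the same fit. The 3 genes were chosen for a high difference, so standing above their neighbours follows from that choice. Of 17 neighbours tested, up to 3 on each side in RefSeq order, 5 were lower with thalidomide and 12 did not pass (edgeR, median log2 -0.26). Over all genes tested 17.6% were higher and 14.9% lower. ADSL, next to TNRC6B and an enzyme of purine synthesis, had 142 and 108 CPM in the combination and thalidomide libraries, against 222 and 194 CPM in the spermine NONOate and control libraries (log2 -0.74, edgeR adjusted p = 0.000754). FAM83F, on its other side, was at log2 -0.28 and did not pass (edgeR adjusted p = 0.680). Beside NFAT5 lie CYB5B, a cytochrome b5 gene of the outer mitochondrial membrane, which was lower (log2 -0.65, edgeR adjusted p = 0.00325), and NQO1, a quinone reductase gene, at log2 -0.67, which did not pass (edgeR adjusted p = 0.147). Beside SCUBE1, TTLL12 (log2 -0.26) and MPPED1 (0.12) did not pass (edgeR adjusted p = 0.290 and 0.691). TNRC6B and SCUBE1 share chromosome 1 but are not neighbours, with 229 genes of the table between them. Counting by strand is not stated, so reads of overlapping genes cannot be told apart.

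**Figure D5:**
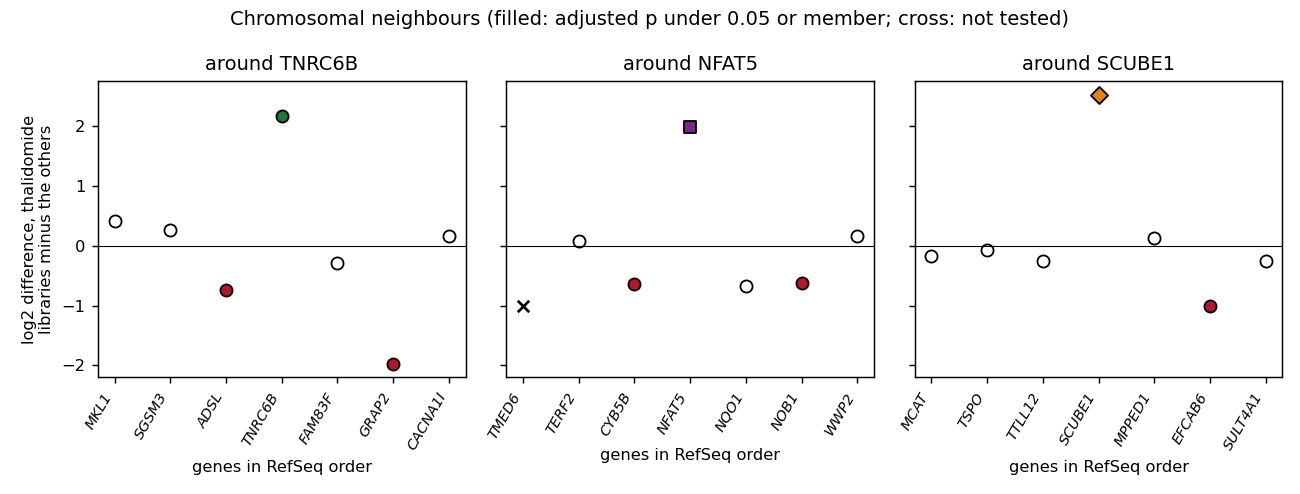
Log2 difference, thalidomide libraries minus the others (vertical axis), for TNRC6B, NFAT5 and SCUBE1 and up to 3 genes on each side in RefSeq order, filled where the edgeR adjusted p was under 0.05, with a cross for a gene too low to test. Each of the 3 genes stands at 1.99 or more, which follows from how it was chosen, and its neighbours lie between -1.98 and 0.42.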

How the data were processed

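RNA sequencing read counts were analysed from 4 whole-embryo libraries. TopHat2 version 2.0.8, build galGal4 and DESeq are named in the submitters' processing notes, and Ensembl release 75 per the file headers. Raw read counts for each gene, and log2 folds between conditions, were deposited by the authors in 1 table. How reads were counted, and whether strand was used, is not stated. Genes of the Z chromosome and the smallest chromosomes were not analysed here. Where several genes carry a symbol, the one with the highest total was used, and 5 listed genes were found through RefSeq synonyms and 3 through an older symbol entered in the lists. RefSeq assembly GRCg7b served for names and gene order alone.

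Counts were scaled with TMM (edgeR 4.0.16, R 4.3.3), and 0.5 reads were added before log2 ratios. Intervals of levels are exact Poisson and those of ratios exact conditional binomial (Clopper-Pearson). The additive fit used genes with at least 20 reads in at least 2 libraries, and its standard errors are the log2 difference divided by the root of F. DESeq2 1.42.0, limma 3.58.1 and other scalings and filters were alternatives. The fit was tried on simulated counts with a fixed spread and the rule of size on Poisson counts, both with known changes. Neither simulation held an interaction of the treatments, so they do not show how either performs on these libraries. Nothing says whether libraries come from separate cultures of embryos. With 1 library per condition, the p-values measure no spread between libraries of the same condition. They rest on the departure of these libraries from the additive fit, with a spread shared largely across genes. The standard error of a gene thus says little of its own departure. SHH, with unequal pairs, had 0.28 (log2), and BMPR1B, with near-equal pairs and similar levels, also had 0.28.

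The 3 genes and all lists were chosen with earlier results of these data known. Named are the 3 genes, up to 6 called genes of each pathway list by smallest adjusted p, paralogues, up to 3 neighbours a side and the 5 nearest profiles. Some further list genes, such as DROSHA and AKR1B1, are named besides. A planned description by coding length was not run, and no sequences are shown, because no sequence table was used here. The long and short mRNA lists were not among the planned lists.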

Additional observations from a re-analysis of the deposited data

How the results depend on the processing

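The thalidomide differences of TNRC6B, NFAT5 and SCUBE1 kept their direction under every scaling, under 5 added reads and without each library. That follows from how the genes were chosen and supports nothing further. Scaled to total counts the differences were 2.35, 2.17 and 2.71 (log2), in that order, a shift shared by all genes. Leaving out 1 library at a time gave 1.92 to 2.42 for TNRC6B, 1.73 to 2.24 for NFAT5 and 2.35 to 2.72 for SCUBE1. The additive fit called 745 to 1530 genes with 1 library left out. At 4-fold the rule of size called 347 genes for thalidomide over control, 239 for the combination over spermine NONOate, 210 for spermine NONOate over control and 127 for the combination over thalidomide, against 1997, 1930, 684 and 607 at 2-fold. With at least 100 reads the last 2 counts were 435 and 383. With total counts 74.9% of the genes past the rule were higher for thalidomide over control and 77.7% for the combination over spermine NONOate, in place of 56.0% and 62.0%. Fixed-list genes named as called kept their sign under all 4 scalings. Over all 13 fits, which include those with 1 library left out, SLC6A12 kept its sign in 12. The list counts by setting were added after seeing the data. The donor term of the additive fit blocks the libraries by spermine NONOate, and without it 2865 genes were called, against 3930. No paired analysis was possible beyond that block, because there is 1 library for each condition. Counting error is small at these depths, and the number of libraries limits what can be said.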

Other observations

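A further list, of BMP ligands, receptors and antagonists, had 10 genes tested in the additive fit, with 3 higher and 2 lower with thalidomide (median log2 -0.05), against 17.6% higher and 14.9% lower over all genes tested. The receptor gene BMPR2 had 145 and 133 CPM in the combination and thalidomide libraries, against 43.7 and 54.6 CPM in the spermine NONOate and control libraries (log2 1.51 ± 0.20 (SE), edgeR adjusted p = 1.02e-11). The receptor gene BMPR1B was higher by log2 1.27 and BMPR1A by 0.98. The ligand gene BMP4 was lower, at log2 -0.58, and so was the antagonist gene NOG, at log2 -1.59 (edgeR adjusted p = 0.033 and 3.82e-05), and BMP4 was not called with total counts. The list had 4 calls without the combination library, 2 without thalidomide, 3 without spermine NONOate and 3 without control. The part of mRNA length in these values was not tested.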
